A study of Mus musculus with 4 samples.

Results

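AMPA receptors are the fast glutamate-gated channels of excitatory synapses, and their transcripts were followed here in the cerebellum of mice with 1 knocked-out copy of Arid1b and of wild type littermates. The members were the 10 rows of the count table whose symbols name the pore-forming subunits Gria1, Gria2, Gria3 and Gria4 or the auxiliary subunits Cacng2, Cacng4, Cacng5, Cacng7, Cacng8 and Cnih2, out of 24015 genes in all. Each member passed the filter on low counts, along with 15117 genes in total. The study measured how losing 1 copy of Arid1b, which encodes a DNA-binding subunit of the nucleosome-moving BAF complex, changes transcription in the adult cerebellum. The heterozygotes (HT) and the wild types (WT) were C57BL/6N mice between postnatal days 140 and 150, and neither genotype received a treatment that the labels name. There were 4 libraries, 1 HT male, 1 HT female, 1 WT male and 1 WT female. The labels do not give the deleted part of Arid1b, the cells in which the deletion acts, or whether a library is 1 animal. Each p-value therefore reflects only how far these libraries differ, which may be technical.

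An AMPA receptor is a ring of pore-forming subunits that opens when glutamate binds. The subunit encoded by Gria2 is changed by RNA editing at a glutamine codon in the pore, by the enzyme that Adarb1 encodes, and receptors that hold the edited subunit pass almost no calcium. Auxiliary subunits sit around the ring, carry the receptor to the surface and slow its closing. They include the transmembrane AMPA receptor regulatory proteins (TARPs), which the Cacng genes encode, and the cornichons, to which Cnih2 belongs. In the cerebellum granule cells are known to use Gria2 and Gria4, Purkinje cells use Gria2 and Gria3 with some Gria1, and Bergmann glia use Gria1 and Gria4 without Gria2.

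The 4 pore-forming subunits are close paralogs. To let their likeness be seen, the stretch around the codon that is edited in Gria2 is shown, with the matching glutamine codon of the others. Each stretch is 45 coding bases from the GENCODE M21 transcripts (build GRCm38, whereas the counts were made on mm9), lies within 1 exon and has the codon in capitals. It lies in exon 11 of Gria1 (chr11:57243073-57243117, plus strand), exon 11 of Gria2 (chr3:80706890-80706934, minus strand), exon 11 of Gria3 (chrX:41610244-41610288, plus strand) and exon 12 of Gria4 (chr9:4464116-4464160, minus strand).
Gria1: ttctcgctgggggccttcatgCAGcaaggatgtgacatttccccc
Gria2: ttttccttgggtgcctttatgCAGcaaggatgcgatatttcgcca
Gria3: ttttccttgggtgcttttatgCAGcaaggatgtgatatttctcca
Gria4: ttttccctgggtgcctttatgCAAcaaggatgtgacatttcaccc
Gria2 and Gria3 shared 42 of the 45 bases, and Gria1 shared 36 with each of them. Among the 45 pairs of members, 0 pairs shared a run of 100 bases, the read length, in their annotated protein-coding transcripts. The longest run in common was 57 bases, between Gria3 and Gria4, so an error-free read that lies within these transcripts belongs to 1 member. The counts are sums per gene and say nothing about editing or about splice forms.

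The TARPs fall into a type I, with Cacng2, Cacng4 and Cacng8, and a type II, with Cacng5 and Cacng7, and the ends of their coding sequences show the split. The last 30 coding bases are given, with the final 4 codons in capitals, which in type I TARPs encode the tail that binds the PDZ domains of the synaptic scaffold. They lie in the last exon at chr15:77995152-77995181 (minus strand) for Cacng2, chr11:107734783-107734812 (minus strand) for Cacng4, chr7:3415573-3415602 (plus strand) for Cacng8, chr11:107877355-107877384 (minus strand) for Cacng5 and chr7:3366916-3366945 (plus strand) for Cacng7, all on GRCm38.
Cacng2: aacacagccaaccgccggACCACGCCCGTA
Cacng4: agcatgctgaaccggcggACGACTCCCGTG
Cacng8: aacacgctcaacaggaaaACCACGCCCGTG
Cacng5: gactatgaccagatgtcaTCATCTCCCTGC
Cacng7: gaccatctccacatctccACTTCGCCGTGC
The 3 type I ends shared 20 or 21 of 30 bases with each other, the type II ends shared 20, and a type I end shared between 9 and 14 bases with a type II end. Cacng4 and Cacng5 lie near each other on chromosome 11, as do Cacng7 and Cacng8 on chromosome 7.

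The libraries held 15950899 to 20616219 counts. Arid1b stood at 53.0 and 55.9 CPM (counts scaled to library size) in the HT male and female, against 69.9 and 70.9 CPM in the WT male and female, a log2 fold change of -0.37 ± 0.11 (SE) that did not pass the test (edgeR quasi-likelihood test, adjusted p = 0.243). At an adjusted p of 0.05, 0.0198% of the tested genes were called between the genotypes, and 11.7% at an unadjusted p of 0.05. All 17 granule cell and all 17 Purkinje cell markers passed the low-count filter. So did the markers in the count table from every other cell type list, so passing does not by itself bear out the tissue label. Markers of brainstem and midbrain neurons were also present. Their 14 genes summed to 461 and 431 CPM in the HT male and female, against 377 and 167 CPM in the WT male and female. The sum was thus lowest in the WT female, but not all of the markers followed it. Hoxa5 and Hoxb5, singled out after their values were seen, were highest in the WT female, at 15.9 and 23.6 CPM. Their other libraries reached at most 5.65 and 9.36 CPM, both in the HT female.

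Per kilobase of transcript, Gria1 was the most abundant member, at 77.0 CPM per kilobase (mean of 4 libraries), followed by Gria4 at 67.2 and by Cacng7, a type II TARP of granule and Purkinje cells, at 56.8. The ranges over libraries of Gria1 and Gria4 overlapped, as did those of Gria4 and Cacng7. Cnih2, a cornichon best known from the hippocampus, came next at 44.7 CPM per kilobase. Gria3 at 23.5 and Gria2 at 20.3 overlapped with each other and lay below it. Cacng2, which encodes stargazin, the TARP that granule cells need to bring AMPA receptors to the surface, reached 15.3, and Cacng5, a TARP of Bergmann glia, 12.1 CPM per kilobase. Cacng8 at 4.11 and Cacng4 at 2.90 were the lowest, with overlapping ranges. The order rests on the length taken for each gene. With the longest protein-coding transcript Gria2 measures 10371 bases, and with the next one 4026 bases, which put it at 52.3 CPM per kilobase and the fourth place. Gria3 came to 39.7 with its second-longest transcript.

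**Figure D1:**
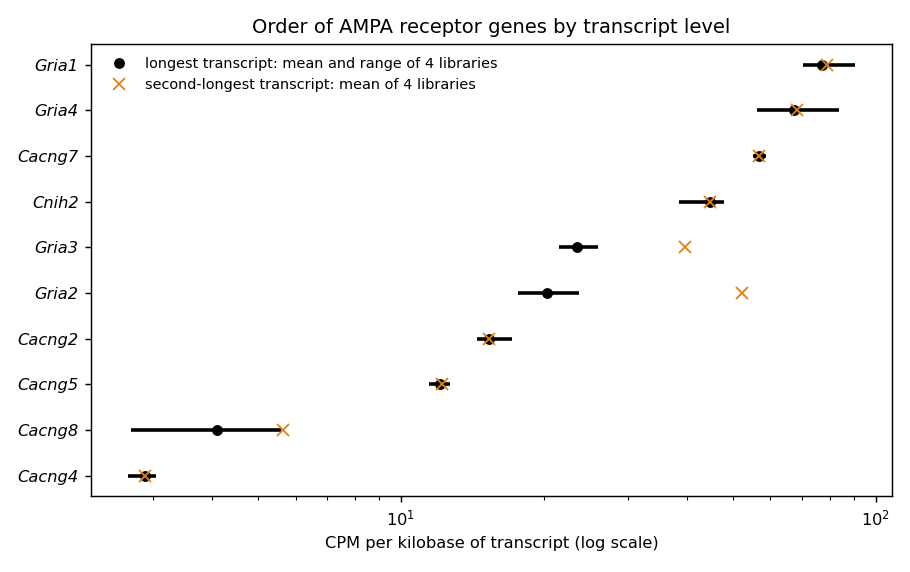
Transcript level of the 10 AMPA receptor genes in CPM per kilobase (horizontal log axis), with the dot for the mean and the bar for the range of 4 libraries when the longest protein-coding transcript sets the length, and a cross for the mean with the second-longest. Gria1 and Gria4 lead with either length, and Gria2 moves from 20.3 to 52.3 CPM per kilobase with the shorter transcript.

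All 4 pore-forming subunits were lower in both HT libraries than in both WT libraries, and none of them passed the test over all genes. Between the genotypes 22.3% of tested genes had both HT libraries below both WT libraries, 29.3% were lower in the HT library of each sex (29.1% higher), and 48.9% had a fitted log2 fold change below 0. The 4 subunits had log2 fold changes between -0.22 and -0.38, with a median of -0.24, while the median of all tested genes was 0.01.

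Gria4 had 305 CPM in the HT male and 329 CPM in the HT female, against 374 CPM in the WT male and 454 CPM in the WT female. The HT libraries were close to each other and the WT female was the highest. The mean was 317 ± 16.3 CPM in HT and 414 ± 56.9 CPM in WT (SD, n = 2 each), a 0.769-fold level. Its log2 fold change of -0.38 ± 0.10 (SE) had the smallest p among the members (unadjusted p = 0.00358, adjusted p = 0.207, edgeR quasi-likelihood test). The change was -0.47 between the females and -0.29 between the males. Gria4 passed with no low-count filter (adjusted p = 0.0265, where 2.92% of genes were called), and its adjusted p lay between 0.0265 and 0.343 over the alternatives that kept all libraries.

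Gria1 stood at 389 and 394 CPM in the HT male and female, against 424 and 502 CPM in the WT male and female. The HT values lay within a few CPM of each other, and the gap to WT was wider in females than in males, with log2 ratios of -0.35 and -0.13. Its log2 fold change was -0.24 ± 0.11 (SE), with an unadjusted p of 0.0448 and an adjusted p of 0.412 (edgeR). Without the WT female it was -0.12. Gria1 and Gria4 shared the order of the 4 libraries, with the WT female highest and the HT male lowest. Cacng2 and the summed granule cell markers had that order too. The summed Bergmann glia and astrocyte markers were also highest in the WT female, but lowest in the HT female. Single markers of that list, Gdf10 among them, did have the full order. How many of all genes share it was not counted, and the part of any cell type in it was not tested.

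Gria2 was measured at 183 and 201 CPM in the HT male and female, against 246 and 211 CPM in the WT male and female. Here the WT male was the highest, and the difference was -0.43 between males and -0.07 between females on the log2 scale. The fitted log2 fold change was -0.25 ± 0.11 (SE; adjusted p = 0.428, edgeR). Gria3, which lies on the X chromosome, had 112 and 114 CPM in the HT male and female, against 135 and 128 CPM in the WT male and female. It was the most even of the subunits across the sexes, with log2 ratios of -0.17 in females and -0.27 in males, and its log2 fold change was -0.22 ± 0.10 (SE; adjusted p = 0.437, edgeR). Gria2 and Gria3 were each other's nearest member by the distance between centred log2 CPM values over the 4 libraries (0.13). The measure is a description over 4 libraries and uses the same values.

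**Figure D2:**
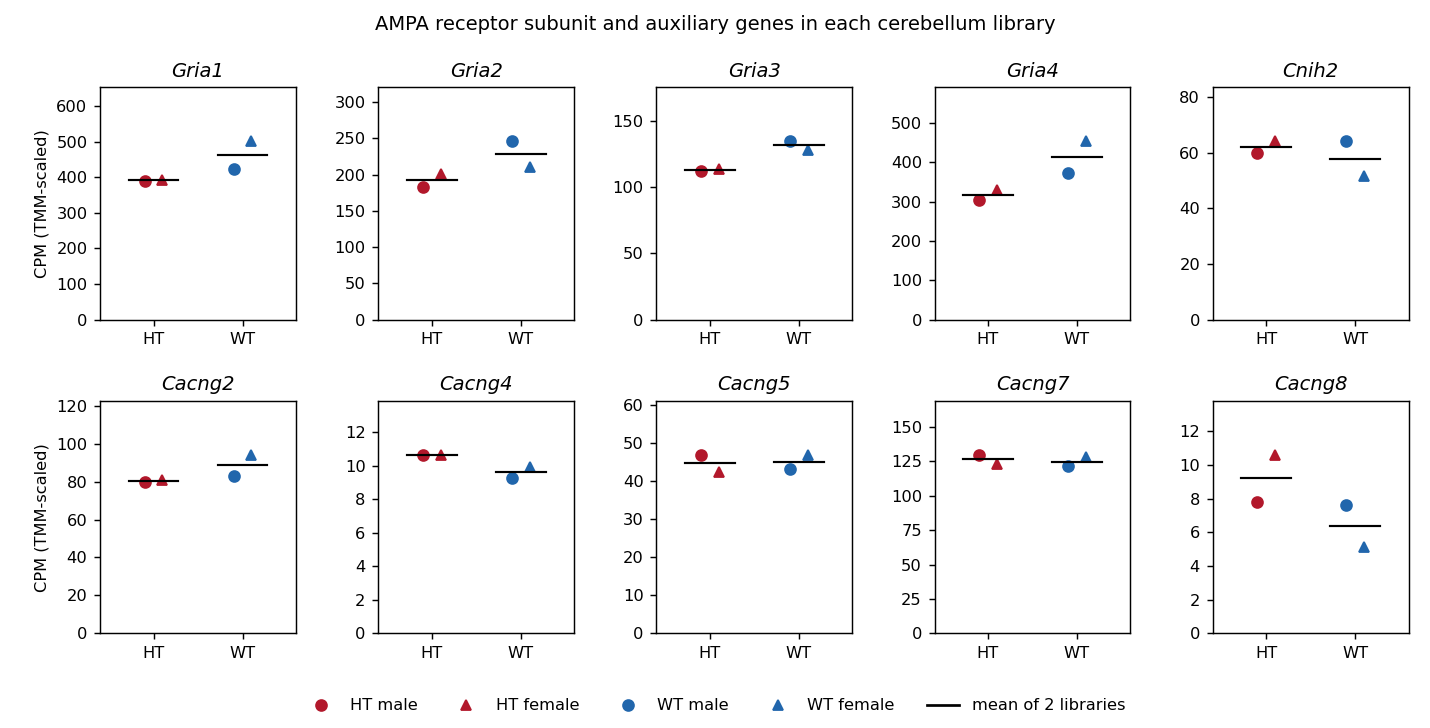
CPM (vertical axes, from 0) of each member in the HT libraries, left, and the WT libraries, right; circles are males, triangles females and bars the mean of 2 libraries. Both HT points lie below both WT points for Gria1, Gria2, Gria3, Gria4 and Cacng2, and above them for Cacng4 and Cacng8.

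The auxiliary subunits did not share that pattern. Of the 6 genes, 2 had a negative and 4 a positive log2 fold change, with a median of 0.06. In edgeR's quasi-likelihood test 0 of 6 passed, also at an unadjusted p of 0.05. Both HT libraries lay below both WT libraries for 1 of them and above for 2, beside 22.3% and 22.4% of all tested genes.

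Cacng2 was the 1 auxiliary gene on the lower side in both sexes, at 79.5 and 80.8 CPM in the HT male and female, against 82.9 and 94.2 CPM in the WT male and female. Its log2 fold change was -0.14 ± 0.11 (SE; adjusted p = 0.667, edgeR), and its pattern was nearest to that of Gria1 among the members, at a distance of 0.11. Cacng7, the most abundant TARP, had 129.8 and 123 CPM in the HT male and female, against 122 and 128 CPM in the WT male and female. These groups overlapped, and the log2 fold change was 0.02 ± 0.10 (SE). Cacng5 had 47.0 and 42.5 CPM in the HT male and female, against 43.2 and 46.8 CPM in the WT male and female. Its nearest member was Cacng7, at a distance of 0.06, and it had a log2 fold change of -0.01 ± 0.13 (SE). The HT male was highest for both genes, while the lowest library was the HT female for Cacng5 and the WT male for Cacng7. The sign of both Cacng5 and Cacng7 turned on which library was left out.

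Cacng4, a type I TARP also found in glia, was low and steady, with 10.7 CPM in both HT libraries, against 9.30 and 9.93 CPM in the WT male and female, and a log2 fold change of 0.15 ± 0.20 (SE; adjusted p = 0.835, edgeR). Cacng8, the main TARP of the hippocampus, had the widest range. Its 158 and 169 counts in the HT male and female, against 125 and 106 counts in the WT male and female, came to 7.80 and 10.6 CPM against 7.60 and 5.14 CPM. The males were alike, and the females differed by 1.03 on the log2 scale. The fitted log2 fold change was 0.54 ± 0.27 (SE; adjusted p = 0.494, edgeR). Cnih2 had 60.0 and 64.1 CPM in the HT male and female, against 64.3 and 51.6 CPM in the WT male and female, so the WT female alone stood low, and its log2 fold change was 0.11 ± 0.13 (SE; adjusted p = 0.809, edgeR).

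**Figure D3:**
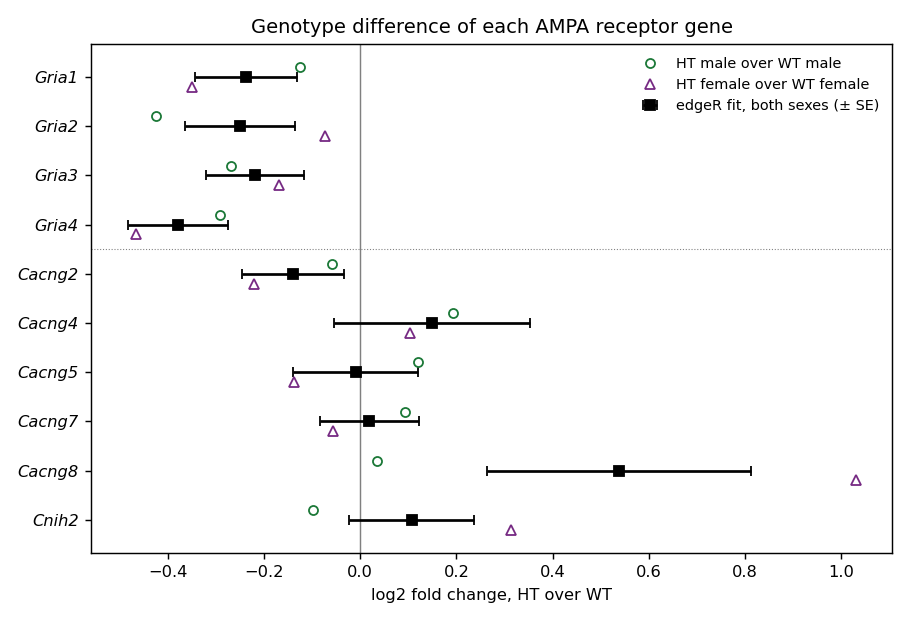
Log2 fold change of HT over WT (horizontal axis) for each member, with squares and bars for the edgeR estimate ± SE, circles for the ratio of the males and triangles for that of the females. The pore-forming subunits lie at -0.22 to -0.38 with both sexes below 0, and the auxiliary genes lie on both sides of 0.

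Of the members, 0 of 10 passed an adjusted p of 0.05 with edgeR's quasi-likelihood test, its likelihood ratio test, DESeq2 or limma-voom, and 2 of 10 (20% of the members, Gria1 and Gria4) had an unadjusted p under 0.05 in the first of these, beside 11.7% of all genes (6.46% lower in HT, where both members lay, and 5.22% higher). In fits with 1 library left out, where genotype is the only term, 3 members passed without the WT male (Gria1, Gria4 and Cacng8) beside 18.4% of all genes, and 1 passed without the WT female (Gria2) beside 4.46%. With the WT male left out the log2 fold changes were -0.36 for Gria1, -0.52 for Gria4 and 0.84 for Cacng8. With the WT female left out Gria2 was at -0.36. Other values shrank: without the WT male Gria2 was at -0.13, and without the WT female Gria4 was at -0.24 (adjusted p = 0.0813, edgeR), Cacng8 at 0.27 and Cacng2 at -0.048. Cacng8 was at 0.29 without the HT female. Without the WT male Cacng2 was at -0.23 and Cnih2 at 0.27. Without the HT male 0 members and 0 of all genes passed, and without the HT female 0 members passed beside 0.0137%. The genotype that keeps both libraries sets the spread in such fits.

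The ratio of auxiliary to pore-forming counts was higher in both HT libraries than in both WT libraries. The 4 Gria genes summed to 989 and 1037 CPM in the HT male and female, against 1179 and 1296 CPM in the WT male and female. The 6 auxiliary genes summed to 335 and 332 CPM in the HT male and female, against 329 and 335 CPM in the WT male and female. The HT sums of Gria were thus both below the WT sums, by 0.29 on the log2 scale, with -0.32 in females and -0.25 in males, and the auxiliary sums differed by 0.0044, with overlapping groups. Divided by transcript length, the auxiliary sum was 138 CPM per kilobase in both HT libraries, against 136 and 131 CPM per kilobase in the WT male and female. That is a log2 difference of 0.04 without overlap (exact permutation p = 0.333). The log2 ratio of auxiliary to Gria counts was -1.56 and -1.64 in the HT male and female, against -1.84 and -1.95 in the WT male and female. It averaged -1.60 ± 0.06 in HT and -1.90 ± 0.08 in WT (SD, n = 2 each), a difference of 0.29 that was 0.30 in females and 0.28 in males. An exact two-sided permutation test over 4 libraries cannot go below p = 0.333, and it gave 0.333 for the Gria sum and for the ratio, with no overlap of the groups in either. The difference in the ratio ran from 0.24 to 0.35 with 1 library left out, and was 0.33 after dividing counts by transcript length.

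**Figure D4:**
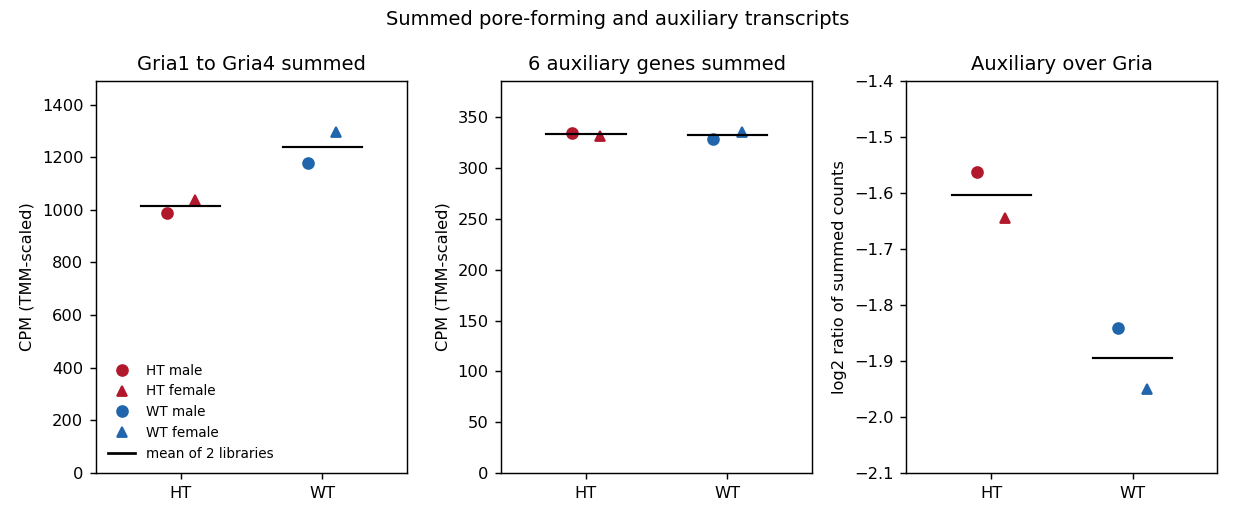
Summed CPM of Gria1 to Gria4 (left), summed CPM of the 6 auxiliary genes (middle) and the log2 ratio of auxiliary to Gria counts (right), with HT left of WT, circles for males, triangles for females and bars for the mean of 2 libraries. The Gria sums are lower and the ratios higher in both HT libraries, and the auxiliary sums stay between 329 and 335 CPM.

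Within the pool of pore-forming transcripts the make-up was similar. Gria1 took 39.3% and 38.0% of the summed Gria counts in the HT male and female, against 36.0% and 38.7% in the WT male and female. Gria4 took 30.9% and 31.7% in the HT male and female, against 31.7% and 35.1% in the WT male and female, a difference of -2.11 percentage points that left the groups apart by little. Gria2, whose edited subunit limits calcium entry, held 18.5% and 19.4% in the HT male and female, against 20.9% and 16.3% in the WT male and female. The WT libraries lay on either side of the HT libraries, and the difference of 0.35 percentage points was smaller than the pooled SD of 2.34. Gria3 held 11.3% and 10.99% in the HT male and female, against 11.4% and 9.90% in the WT male and female. The 95% Wilson intervals of these shares reached between 0.358 and 0.740 percentage points to either side, which covers counting error only, and these shares of counts favour long transcripts. The exact permutation p was 0.333 for Gria4, 0.667 for Gria1 and 1 for Gria2 and Gria3. Adarb1, which encodes the editing enzyme, had a log2 fold change of -0.01 ± 0.10 (SE; adjusted p = 0.974, edgeR), and was singled out after its value was seen.

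Between the sexes 0 of 10 members passed the adjusted threshold with edgeR, beside 0.0595% of all genes, and 0 of 10 at an unadjusted p of 0.05, beside 3.82%. The largest difference of females minus males was 0.19 ± 0.10 (SE) for Gria4, on the log2 scale, and X-linked Gria3 had -0.02 ± 0.10 (SE). DESeq2, limma-voom and the likelihood ratio test gave 0 members as well. Asked whether HT and WT differed more in one sex, 0 of 10 members passed the adjusted threshold in each of these tools, beside 0.0198% of all genes with the quasi-likelihood test. Cacng8 alone had an unadjusted p under 0.05 in edgeR's fit across all genes (females minus males 1.01 ± 0.43, SE; adjusted p = 0.998), beside 3.55% of genes. In that fit the difference between the sexes is the residual.

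Other genes of the AMPA receptor complex went both ways. Of 24 further auxiliary and assembly genes 23 were tested, with 11 lower and 12 higher in HT, a median log2 fold change of 0.09 and 0 past the adjusted threshold in edgeR, while 4 lower and 4 higher ones had an unadjusted p under 0.05. Shisa6, which encodes an auxiliary subunit that holds AMPA receptors at the synapse, had 88.5 and 101 CPM in the HT male and female, against 119 and 139.7 CPM in the WT male and female. Its log2 fold change of -0.45 ± 0.10 (SE; adjusted p = 0.156, edgeR) was larger in size than that of any Gria gene. Porcn (-0.33 ± 0.11, SE), an acyltransferase found in AMPA receptor complexes, and Prrt2 (-0.32 ± 0.11, SE), a membrane protein of synapses, lay on the lower side too. Olfm2 (0.47 ± 0.14, SE), a secreted olfactomedin, lay on the higher side. Cacng3, the remaining type I TARP, had 21.02 and 20.03 CPM in the HT male and female, against 18.5 and 11.4 CPM in the WT male and female, a log2 fold change of 0.49 ± 0.19 (SE; adjusted p = 0.345, edgeR). As with Cacng8 and Cnih2, its lowest library was the WT female. Cacng1 and Cacng6, relatives that serve calcium channels, had at most 7 counts in any library and were not tested.

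Of 24 trafficking and anchoring genes 23 were tested, with 10 lower and 13 higher in HT and a median of 0.02. In edgeR 0 were past the adjusted threshold, with 4 lower and 2 higher at an unadjusted p under 0.05. The shares of all tested genes at that p were 6.46% lower and 5.22% higher. Arc, which drives the removal of AMPA receptors from the surface, had a log2 fold change of 0.40 ± 0.13 (SE), and Nsf, an ATPase that binds the Gria2 product, had 0.31 ± 0.11 (SE). Nptx1, a pentraxin that gathers AMPA receptors, had -0.27 ± 0.10 (SE). These 3 had adjusted p-values between 0.267 and 0.342 in edgeR.

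Most markers of granule and Purkinje cells, 2 of the cell types that express these subunits, lay on the same side as the Gria genes. Of 17 granule cell markers 16 were lower in HT, with a median log2 fold change of -0.43 (-0.43 in females and -0.41 in males), and they summed to 6265 and 6816 CPM in the HT male and female, against 7799 and 8799 CPM in the WT male and female. Of 17 Purkinje cell markers 15 were lower, with a median of -0.32 (-0.45 in females and -0.15 in males), and sums of 5813 and 5494 CPM in the HT male and female, against 6431 and 7326 CPM in the WT male and female. In both lists 0 markers passed the adjusted threshold in edgeR, and 0 of their markers were at 0 counts. At an unadjusted p under 0.05 in edgeR, 14 granule and 10 Purkinje cell markers were lower, beside 6.46% of all tested genes. A fitted log2 fold change below 0 was found for 48.9% of all tested genes. Of 15 Bergmann glia and astrocyte markers 9 were lower and 6 higher, with a median of -0.07, and sums of 6690 and 6348 CPM in the HT male and female, against 6349 and 7615 CPM in the WT male and female. The gene of smallest p among them, Gfap, the intermediate filament of astrocytes, was on the higher side, with 268 and 255 CPM in the HT male and female, against 215 and 232 CPM in the WT male and female (log2 fold change 0.23 ± 0.11, SE; adjusted p = 0.433, edgeR). The next, the Bergmann glia marker Gdf10, had 71.1 and 72.7 CPM in the HT male and female, against 73.1 and 122 CPM in the WT male and female, with the WT female highest. In whole tissue, fewer cells of a type and less RNA per cell cannot be told apart, and the part of these markers in the Gria values was not tested.

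**Figure D5:**
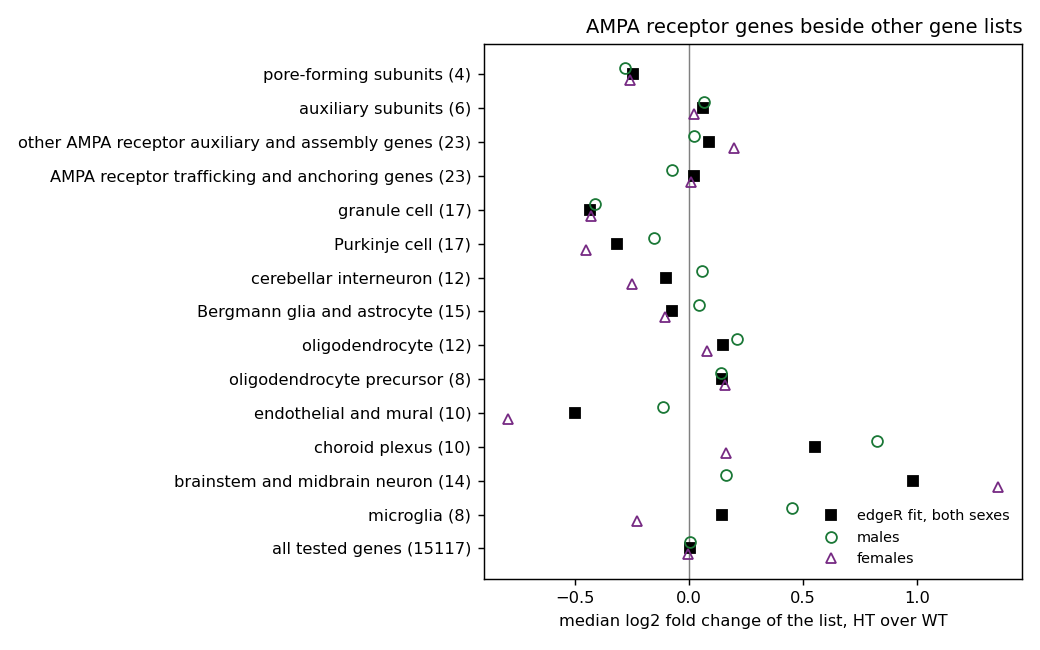
Median log2 fold change of HT over WT (horizontal axis) for gene lists, with the number of tested genes in brackets, squares for the fit, circles for males and triangles for females. The pore-forming subunits (-0.24) lie between the granule (-0.43) and Purkinje cell markers (-0.32) and all tested genes (0.01), and the auxiliary subunits (0.06) lie near 0.

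The markers of brainstem and midbrain neurons had a median log2 fold change of 0.98, with 12 of 14 higher, 1.35 in females and 0.16 in males. One of them, Th, the rate-limiting enzyme of catecholamine synthesis, passed the test (1.154 ± 0.151, SE; adjusted p = 0.0473, edgeR). Cacng8, Cnih2 and Cacng3 resembled the sum of the brainstem and midbrain markers in having their lowest value in the WT female. Like the median of those markers, their log2 ratio was larger in females (1.03, 0.31 and 0.80) than in males (0.04, -0.10 and 0.18). The part of brainstem or midbrain tissue in these values was not tested. Oligodendrocyte precursor markers, cells that carry AMPA receptors too, had a median of 0.14, with 6 of 8 higher, and sums of 398 and 391 CPM in the HT male and female, against 366 and 361 CPM in the WT male and female. Oligodendrocyte markers had a median of 0.15, with 0.08 in females and 0.21 in males. Microglial markers had a median of 0.15 in the fit, but the sexes opposed each other, with -0.23 in females and 0.45 in males. Choroid plexus markers had a median of 0.55, with 0.16 in females and 0.82 in males. Endothelial and mural markers had a median of -0.50, with -0.79 in females and -0.11 in males. Interneuron markers had a median of -0.10, with -0.25 in females and 0.06 in males, and 7 of 12 were lower. The 1 interneuron marker past the test was higher in HT: Slc6a5, the glycine transporter of glycinergic neurons, at 1.42 ± 0.18 (SE; adjusted p = 0.0473, edgeR).

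The nearest genes to each Gria gene were also looked up among all genes. Among 10435 other genes of at least 10 CPM, the nearest to Gria4 was 2810403A07Rik, at a distance of 0.0093 over the 4 libraries, with 78.2 and 84.5 CPM in the HT male and female, against 95.8 and 117 CPM in the WT male and female. The nearest to Gria2 were Zfp275 and Lemd3, to Gria3 Etaa1 and Furin, a protease that cleaves precursor proteins, and to Gria1 Ccdc167 and Ncapd2, a condensin subunit. The distance over 4 libraries is a description, and picking the nearest of so many genes can by itself give a small distance.

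Promoters are shown for Gria2 and Gria4, the 2 pore-forming subunits with an entry in the RefSeq promoter table (GRCm38.p6), where 7 of the 10 members matched. Each runs from 250 bases before to 50 after the annotated start, on the minus strand, at chr3:80802786-80803085 for Gria2 and chr9:4796185-4796484 for Gria4, with CG dinucleotides in capitals.
Gria2: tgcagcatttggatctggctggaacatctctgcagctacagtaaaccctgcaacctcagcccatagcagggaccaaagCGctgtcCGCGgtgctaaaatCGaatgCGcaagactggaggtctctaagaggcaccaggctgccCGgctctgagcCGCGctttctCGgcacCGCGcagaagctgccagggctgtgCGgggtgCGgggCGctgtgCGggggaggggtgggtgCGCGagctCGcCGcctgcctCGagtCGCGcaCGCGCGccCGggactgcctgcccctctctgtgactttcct
Gria4: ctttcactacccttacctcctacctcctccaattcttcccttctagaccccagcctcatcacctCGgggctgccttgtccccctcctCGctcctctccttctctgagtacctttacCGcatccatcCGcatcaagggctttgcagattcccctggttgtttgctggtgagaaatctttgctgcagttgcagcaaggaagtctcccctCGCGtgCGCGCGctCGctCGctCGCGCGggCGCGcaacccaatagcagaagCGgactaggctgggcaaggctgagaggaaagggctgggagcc
Gria2 held 26 CG dinucleotides and Gria4 17, against a median of 7 over 32851 promoters of the same length, and 16.9% and 31.4% of those promoters held at least as many. Neither window held the TATA box letters TATAAA on either strand, while 13.6% of all promoters did. The same was true of the GC box letters GGGCGG, held by 35.7%, and of the cAMP-response core TGACG, held by 20.8%. A count of letters does not show that a factor binds or is absent.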

How the data were processed

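All 4 strand-specific poly(A) libraries shared 1 sequencing lane, with 100-base single-end reads, per the labels' protocols. The deposited values are raw counts of reads per gene symbol. The submitters' processing notes name STAR, featureCounts, FastQC and edgeR, and mm9 as the build. Versions, annotation and the strand setting of the counting are not given in the sources used here. How counts were shared between a gene and an antisense neighbour is thus unknown.

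Totals were 15950899 to 20616219 counts, so a floor of 3 counts is 0.146 to 0.188 CPM, which covers counting error only. Genes were kept with filterByExpr by genotype (15117 of 24015), and CPM used their counts scaled by TMM. Genotype was tested with edgeR 4.0.16 (R 4.3.3) by the robust quasi-likelihood method, adjusting for sex, which left 1 residual degree of freedom, and p-values were adjusted over all tested genes (Benjamini-Hochberg). The SE is the size of the log2 fold change divided by the square root of F. Within-sex ratios, with a prior count of 2, were not tested. The genotype effect in females minus that in males was the product of both codes, fitted beside genotype. Lengths are those of the longest protein-coding transcript per symbol in GENCODE M21. Alternatives used DESeq2 1.42.0, limma-voom 3.58.1, the likelihood ratio test, other scalings, filters and terms, and each library left out. Scripts were tested on simulated data.

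The members and lists were chosen with earlier results of these data known. The genes to be named were all members, Arid1b, up to 4 genes of smallest p from each further list, the 2 nearest genes to each Gria gene by Euclidean distance of centred log2 CPM among genes of at least 10 CPM, and Cacng1, Cacng3 and Cacng6. One gene that this rule would name is not reported here.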

Additional observations from a re-analysis of the deposited data

How the results depend on the processing

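Over the 120 alternative values of the members' genotype fold changes, 5 changed sign and 0 of the 48 of the Gria genes did. Cacng5 turned to 0.057 without the HT female and 0.051 without the WT female, and ran from -0.090 to 0.057 with 1 library left out. Cacng7 turned to -0.026 without the HT male and -0.013 without the WT male, and ran from -0.026 to 0.056. Cnih2 turned to -0.051 without the WT female, and ran from -0.051 to 0.27. The cause was not tested. The number of members past the adjusted threshold was 0 as reported, 1 with no low-count filter (Gria4), and 0 to 3 with 1 library left out. For sex it was 0 under all 13 alternatives tried, and for genotype by sex 0 under all 8. DESeq2 gave no adjusted p for Cacng4 and Cacng8 between the genotypes. The median member log2 fold change ran from -0.11 to -0.050 with 1 library left out. The HT minus WT difference in share then ran from -0.119 to 2.65 percentage points for Gria1 (negative without the WT male), from -1.95 to 2.66 for Gria2 (negative without the HT female or the WT female), from -0.278 to 1.250 for Gria3 (negative without the WT female) and from -3.79 to -0.426 for Gria4. The summed Gria level kept its direction, at -0.36 to -0.22 on the log2 scale. Lengths of the second-longest transcript were chosen after seeing the data and changed the direction of 0 of the 4 shares. The labels give no replicate numbers, but each sex holds 1 HT and 1 WT library, and the sex term of the fit compares them as a pair. Without that term 0 members passed. Depth limits Cacng8 most, with 106 to 169 counts per library.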
